A study of Homo sapiens with 3 samples.

Results

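The nuclear genes for the proteins of the mitochondrial ribosome were followed through depletion of UHRF1 in HCT116, a human colorectal carcinoma cell line. Members were the probe sets that the array annotation ties to exactly 1 symbol starting with MRPL (large subunit) or MRPS (small subunit) and a digit, with pseudogenes dropped. This gave 75 genes on 140 probe sets, out of 19775 genes and 54613 probe sets in all. MRPL53 and MRPS24 shared every probe set with another symbol and were not members. By symbol, 48 genes were MRPL (called the large subunit below) and 27 MRPS (the small subunit). MRPS30 and MRPS18A sit in the large subunit of the human mitochondrial ribosome despite their symbols, and were counted with the MRPS genes except where stated. The antisense RNA MRPL20-AS1 carries such a symbol without coding for a ribosomal protein and was kept apart. The control array had it at 6.32, hairpin 2 at 6.72 and hairpin 5 at 6.58 (log2).

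The 3 samples were a lentiviral scrambled hairpin as control (Scr_shRNA), UHRF1 shRNA-2 and UHRF1 shRNA-5, each on 1 Affymetrix array of biotin-labelled cRNA. All were HCT116 cells infected with lentivirus and kept under puromycin for 6 days before harvest. The labels name no separate cultures, so the spread between the 2 hairpin arrays holds the hairpin, the culture and the array together. UHRF1 is a chromatin protein that reads hemimethylated DNA and histone H3, and the study asked which transcripts depend on it. For UHRF1 itself the control array gave 8.54, hairpin 2 gave 6.20 and hairpin 5 gave 6.67, so the targeted transcript read 5.09-fold and 3.68-fold lower (limma adjusted p = 0.999). The epithelial markers EPCAM (10.23, 10.13 and 9.93 in the same order) and KRT18 (12.26, 12.15 and 12.48) were far above the median of the control array (3.002), while the enterocyte marker VIL1 (3.13, 3.12 and 3.11) was near it and PTPRC, a leukocyte marker, below it (2.51, 2.55 and 2.75). Of the markers on the array, 11 of 13 for colorectal epithelium passed the filter on low values described below. For leukocytes 1 of 6 passed and for fibroblasts and endothelium 3 of 9, beside 11865 of 19775 genes in all. KRT20 passed only through hairpin 2 (2.77, 5.62 and 2.64).

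Mitochondria keep their own ribosome to translate the few proteins that mitochondrial DNA encodes, all of them subunits of the respiratory chain and ATP synthase. Its RNAs come from mitochondrial DNA, but every one of its proteins is encoded in the nucleus, made in the cytosol and imported. Some of these proteins descend from bacterial ribosomal proteins, and others have no bacterial counterpart. The large subunit forms the peptide bond and holds the exit tunnel at the inner membrane; the small subunit binds mRNA and decodes it. Defects in single members cause combined failure of respiratory chain complexes.

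All 75 genes were expressed above the filter used for testing (a mean over the arrays of at least 3.28 on the log2 scale, the 40th percentile of genes). Where a gene had several probe sets, the brightest by mean stood for it. These means ran from 6.93 to 10.72, and 71.4% of the 11865 genes tested lay below the lowest of them. Levels of different probe sets are not comparable with each other, so the comparisons below are between arrays within a probe set. Differences are hairpin minus control in log2 units.

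Most mitochondrial ribosomal protein genes stayed close to the control with both hairpins. Of the 75, 51 (68.0%) were under 1.2-fold from the control with each hairpin. The share was 37.5% of all genes tested and 43.6% of the 3388 genes whose mean reached that of the lowest member. The subunits differed in this, with 36 of 48 large subunit genes but 15 of 27 small subunit genes (55.6%). With hairpin 5 alone, 40.7% of small subunit genes were at least 1.2-fold from the control, against 40.6% of the 3388 genes. With hairpin 2 alone these shares were 14.8% and 34.7%. No member was 1.5-fold lower with both hairpins, where 1.59% of all genes were, and none was 1.5-fold higher with both, where 0.759% were. At 1.2-fold, 3 members were lower with both hairpins (MRPS10, MRPS16 and MRPS30), where 9.09% of all genes were. Another 3 were higher with both (MRPL14, MRPL16 and MRPL44), where 6.65% of all genes were. The 3 lower ones were 11.1% of the small subunit genes, and the 3 higher ones 6.25% of the large. In limma, 0 members and 0 of 11865 genes (0.0%) passed an adjusted p of 0.05, with 0.999 the smallest adjusted value. Unadjusted limma p-values under 0.05 were found for 0 members and 277 genes (2.33%), and the lowest unadjusted limma p of a member was 0.108, for MRPS16. The fit rests on 1 control array and the spread between 2 hairpins, and its 95% interval around a member's difference had a median half-width of 0.67. As in any RNA from a whole culture, fewer cells with the transcript and less of it per cell cannot be told apart.

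The medians of both subunits lay close to 0. The large subunit had a median difference of −0.01 with hairpin 2 and −0.05 with hairpin 5, and the small subunit −0.05 and −0.13. The median over all genes tested was 0.03 and −0.06, and over the 3388 genes at or above the lowest member 0.02 and −0.11. Of the 48 large subunit genes, 21 were lower and 12 higher with both hairpins, with 15 mixed. Of the 27 small subunit genes, 12 were lower and 6 higher, with 9 mixed. The split of the large subunit depended on the scaling of the arrays: it was 13 lower and 12 higher with median centring, and 15 lower and 18 higher with cyclic loess. With MRPS30 and MRPS18A counted in the large subunit, 22 of 50 large and 11 of 25 small subunit genes were lower, and the small subunit median with hairpin 5 was −0.09. Among all genes 32.3% were lower and 29.0% higher with both, and of the 3388 genes at or above the lowest member 1306 and 914 were. Both hairpins are read against the same control array, so agreement in sign is not independent. For the mean of the hairpins, the quartiles of the large subunit lay between −0.12 and 0.06, of the small subunit between −0.24 and 0.04, and of all genes tested between −0.20 and 0.16.

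**Figure D1:**
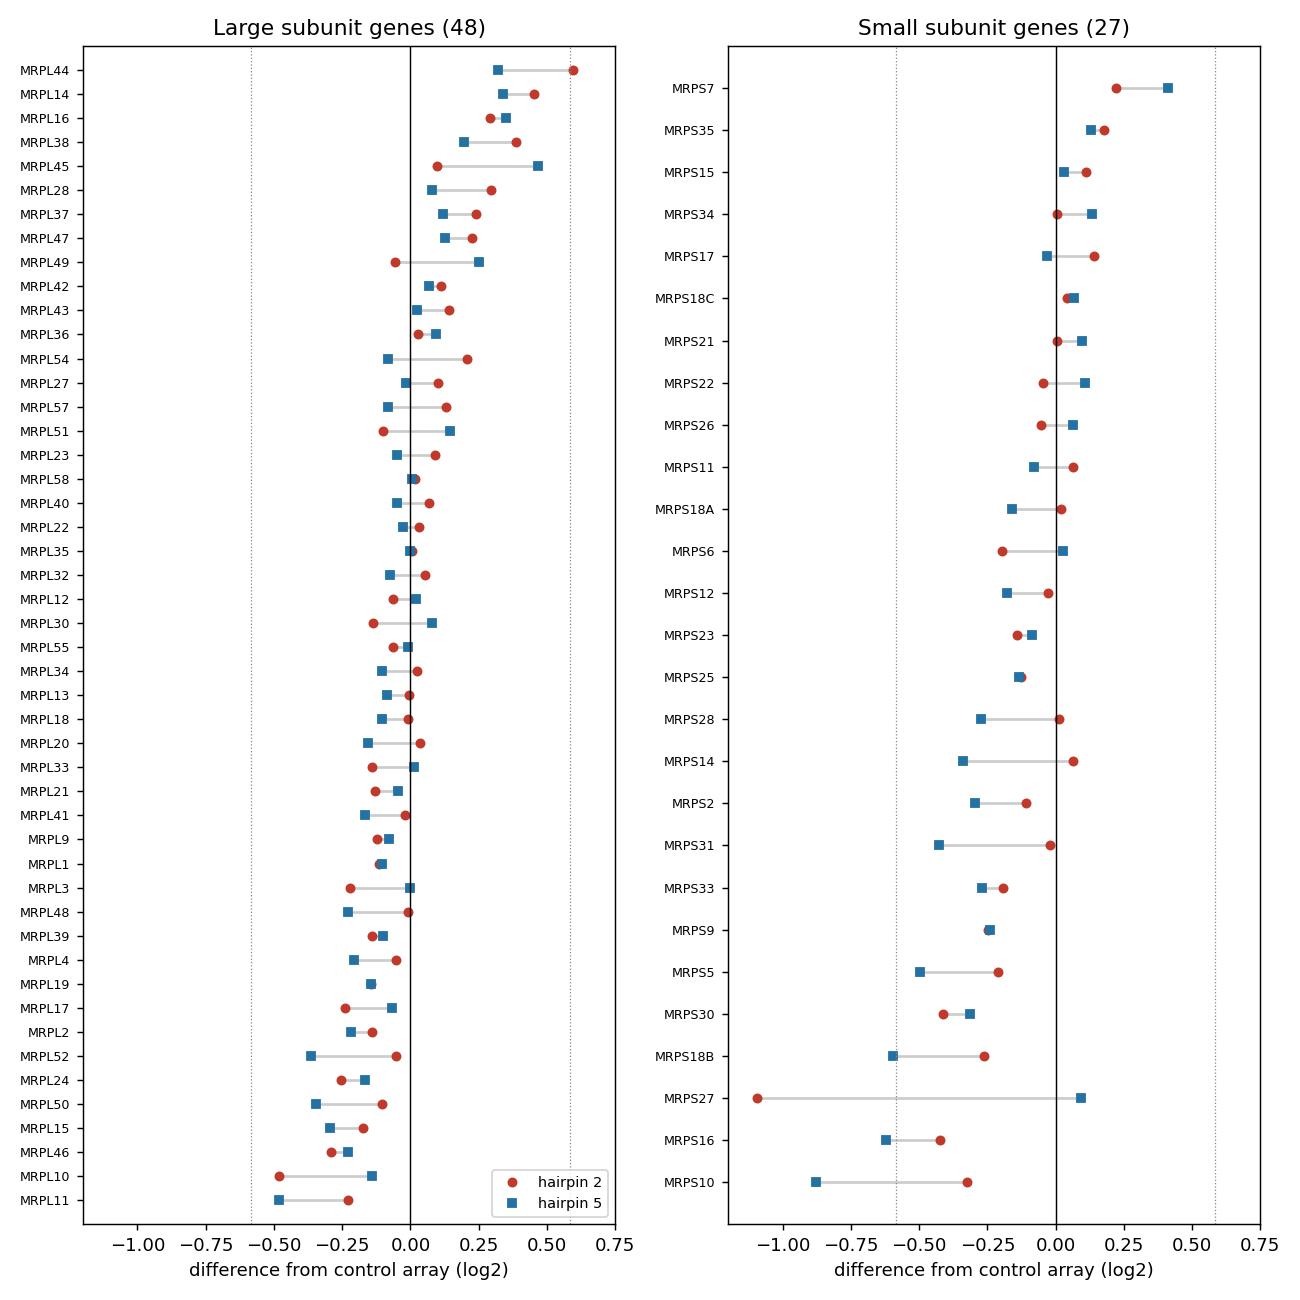
Difference from the control array (log2) of each of the 48 large subunit genes and 27 small subunit genes, with 1 red circle for hairpin 2 and 1 blue square for hairpin 5; dotted lines mark 1.5-fold. Points cluster around 0 in both panels, MRPS27 stands out at −1.09 with hairpin 2 only, and no gene has both points beyond the same dotted line.

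**Figure D2:**
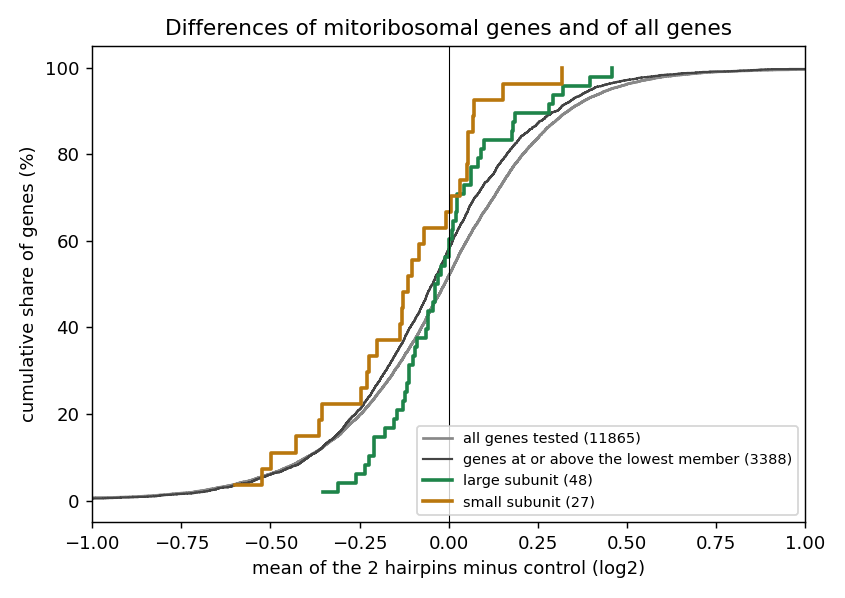
Cumulative share of genes (%) against the mean of the 2 hairpins minus control (log2) for the large subunit, the small subunit, all 11865 genes tested and the 3388 genes at or above the lowest member. The large subunit curve is steep around its median of −0.03, and the small subunit curve lies to the left with a median of −0.11.

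Among large subunit genes, MRPL44 had the highest mean difference of the hairpins on its brightest probe set. Averaged with its other probe set, which lay below the filter, it was at 0.25, under MRPL14 (0.40), MRPL16 (0.32) and MRPL45 (0.28). With hairpin 5 alone MRPL45, MRPL16 and MRPL14 were also higher. MRPL44 encodes a protein with the fold of a double-strand RNA nuclease that is required for assembly of the large subunit. Control, hairpin 2 and hairpin 5 gave 6.63, 7.22 and 6.95, differences of 0.60 and 0.32 (mean 0.46 ± 0.20, SD, n = 2 hairpins). MRPL14, a protein of the face that meets the small subunit, read 9.38, 9.83 and 9.71, which was 1.37-fold and 1.27-fold higher. MRPL16, which lies near the peptidyl transferase centre, read 8.16, 8.46 and 8.51, 1.22-fold and 1.28-fold higher. In these 3 genes both hairpin arrays were above the control by more than they differed from each other.

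The next in order were MRPL38, of the central protuberance that faces the head of the small subunit, at 7.34 on the control array against 7.72 and 7.53, and MRPL47, beside the exit of the peptide tunnel, at 10.34 against 10.57 and 10.47. MRPL38 was thus 1.31-fold and 1.15-fold higher. MRPL45, which anchors the ribosome to the inner membrane, was higher mainly with hairpin 5, at 7.76 on the control array against 7.86 and 8.23.

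On the low side of the large subunit, MRPL11, at the base of the stalk that recruits translation factors, read 8.66, 8.43 and 8.18, differences of −0.23 and −0.48. MRPL10, the other protein of the stalk base, read 8.91, 8.43 and 8.77 and was low mainly with hairpin 2. MRPL12, which forms the mobile arms of the stalk, read 10.01, 9.94 and 10.03, so the 3 stalk genes did not share one pattern over the arrays. MRPL46, of the central protuberance, read 7.90, 7.61 and 7.67, and MRPL24, near the tunnel exit, 9.42, 9.17 and 9.26. MRPL15 read 9.19, 9.01 and 8.89, and MRPL19 read 7.98, 7.83 and 7.83. In these 4 both hairpin arrays were below the control, and MRPL19 had the same value on both. MRPL3, a core protein of the subunit, read 10.77, 10.55 and 10.77.

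Grouped by position in the large subunit, the stalk had 2 of 3 genes lower with both hairpins, and the other regions held genes of both signs. The 6 genes around the peptide exit had a median of 0.06 with hairpin 2 and −0.04 with hairpin 5, with 2 lower and 2 higher with both. The 7 genes of the central protuberance had medians of 0.02 and −0.05, with 3 lower and 2 higher. The 29 large subunit genes with a bacterial counterpart had medians of −0.05 and −0.07, with 14 lower and 5 higher with both hairpins (32.3% and 29.0% of all genes tested were). The 18 without one had medians of 0.04 and −0.02, with 6 lower and 7 higher. MRPL55 was placed in neither class.

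In the small subunit the genes at the low end were further from the control than in the large subunit. MRPS10, a protein of the head of the subunit, read 8.71, 8.39 and 7.83 in the order control, hairpin 2 and hairpin 5, differences of −0.32 and −0.88 (mean −0.60 ± 0.39, SD, n = 2 hairpins). MRPS16, conserved from bacteria, read 8.28, 7.86 and 7.66, or 1.34-fold and 1.54-fold lower. MRPS18B, one of 3 human relatives of the bacterial protein S18, read 9.36, 9.10 and 8.76, differences of −0.26 and −0.60. In all 3 the control array was highest and hairpin 5 lowest.

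MRPS30 read 8.52, 8.10 and 8.20 and was low on both arrays by similar amounts. MRPS9, another head protein, read 8.34, 8.09 and 8.09, with nearly the same value for both hairpins. MRPS5, at the mRNA entry, read 8.33, 8.12 and 7.83; it fell outside the rule for genes given in full and was chosen after its values were seen. With hairpin 5, 3 small subunit genes were at least 1.5-fold from the control, MRPS10, MRPS16 and MRPS18B, all lower; 12.6% of all genes were that far with this hairpin.

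The high end of the small subunit was closer to the control. MRPS7, which binds the RNA of the head, was furthest, at 8.84 on the control array against 9.07 and 9.25, or 1.17-fold and 1.33-fold higher. MRPS35 read 7.13, 7.31 and 7.26, and MRPS15 read 10.67, 10.79 and 10.71. MRPS18C read 9.68, 9.72 and 9.75 and MRPS21 read 10.27, 10.28 and 10.36, both close to the control. The other relatives of S18 stayed near the control where MRPS18B was lower: MRPS18A differed by 0.02 and −0.16, and MRPS18C by 0.04 and 0.07.

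MRPS27 was the member furthest from the control on any array, and only with one hairpin. It encodes a pentatricopeptide repeat protein that binds RNA of the mitochondrial ribosome. The control array gave 7.37, hairpin 2 gave 6.28 and hairpin 5 gave 7.47, so it was 2.13-fold lower with the first and 1.07-fold higher with the second. With MRPL44 it was 1 of 2 members at least 1.5-fold from the control with hairpin 2, where 9.07% of all genes were. It was the 1 member that differed 2-fold between the hairpins, where 3.17% of all genes did. With 1 array per hairpin this difference has no replicate check, and the gene's other probe set lay near background (2.69, 2.57 and 2.60).

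**Figure D3:**
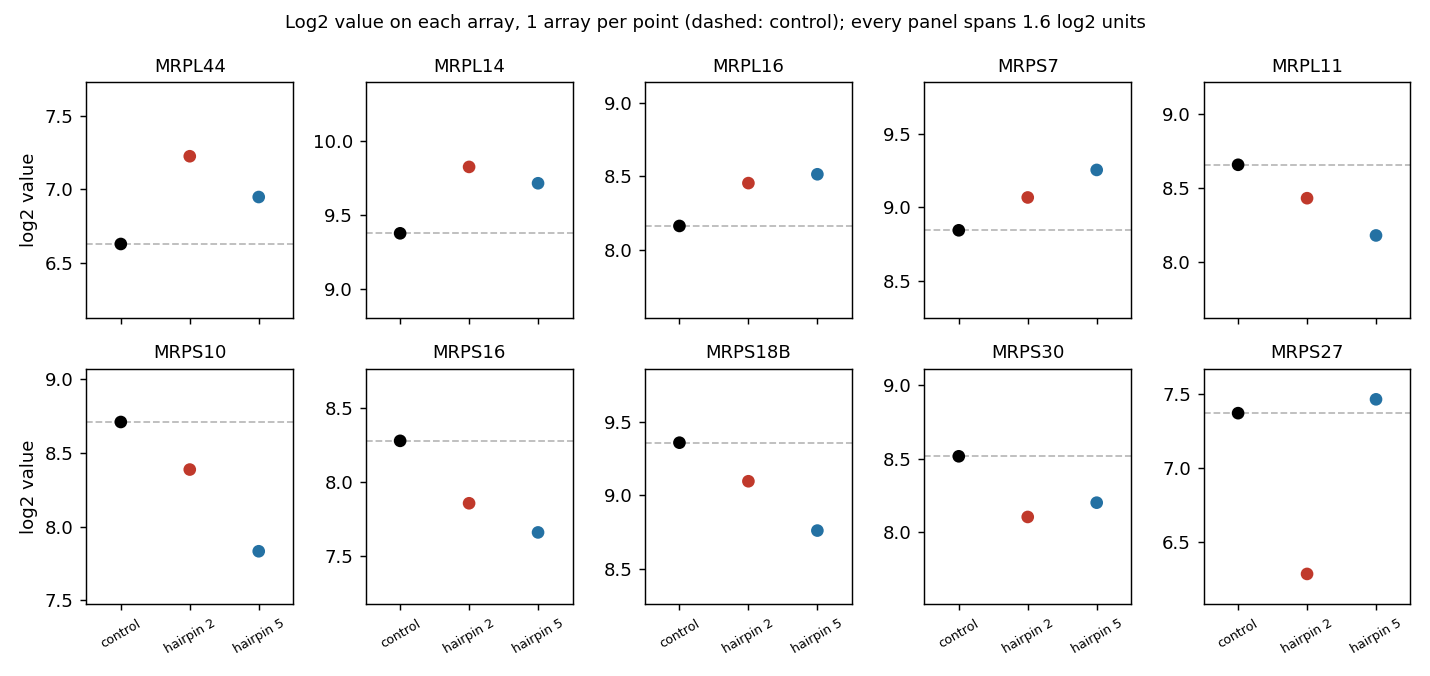
Log2 value on each of the 3 arrays for 10 members, 1 point per array, with the control value dashed and every panel spanning the same range. MRPL44, MRPL14, MRPL16 and MRPS7 have both hairpin points above the control, MRPL11, MRPS10, MRPS16, MRPS18B and MRPS30 have both below, and MRPS27 is low with hairpin 2 alone.

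Between the hairpins the members differed little. The median SD between the 2 hairpin differences was 0.09 over the members, 0.18 over all genes tested and 0.14 over genes at or above the lowest member. Hairpin 5 read below hairpin 2 for 45 of 75 members, 29 in the large and 16 in the small subunit; this held for 61.0% of all genes tested and 69.8% of those at or above the lowest member. The small subunit genes furthest below hairpin 2 with hairpin 5 were MRPS10 (hairpin 2 minus hairpin 5, 0.56), MRPS31 (0.41) and MRPS14 (0.40), and in the large subunit MRPL52 (0.31), MRPL54 (0.29) and MRPL44 (0.28). In the other direction stood MRPS27 (−1.19), MRPS6 (−0.22) and MRPS7 (−0.19), and MRPL45 (−0.37), MRPL10 (−0.34) and MRPL49 (−0.31). On the arrays, in the order control, hairpin 2 and hairpin 5, MRPS31 read 8.03, 8.01 and 7.60, MRPS14 read 8.43, 8.50 and 8.10, and MRPL52 read 8.68, 8.63 and 8.31. In these 3 hairpin 2 stayed near the control and hairpin 5 was lower. MRPL54 read 8.51, 8.71 and 8.42, MRPL49 read 8.33, 8.27 and 8.58, and MRPS6 read 8.14, 7.95 and 8.17. In these 3 the hairpins lay on opposite sides of the control.

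How far a member's value depends on the probe set could be read for the 27 genes with several probe sets above the filter. In 12 of these all probe sets had a mean difference of the same sign, and in 15 the signs were mixed. In several of the 15 the other sign came only from a probe set with a low level, not far above the filter. The means of such probe sets over the arrays were 3.29 for MRPL38, 3.31 for MRPS26, 3.94 for MRPS30 and 4.06 for MRPL55. MRPS18B was lower on both of its probe sets. The second one read 9.09 for the control and 8.46 and 8.07 for the hairpins, a mean difference of −0.82 against −0.43 on the first. MRPS5 was lower on both probe sets above the filter (−0.35 and −0.44), and MRPS10 by its mean difference on all 3 (between −0.60 and −0.17), although one of these read 0.14 higher with hairpin 2. MRPS16 was lower on both, with means of −0.52 and −0.08 and an average of −0.30. MRPS30 was −0.36 on one probe set and 0.22 on the other, and averaged over all of its probe sets, those near background included, its mean was 0.03. MRPL38 was split between 0.29 and −0.26, and its average was 0.02. Of the members given on every array by the rule, 14 had several probe sets, those near background included. In 12 of these the average was over 1.5 times smaller or of the other sign. Beside those above, the averages were −0.34 for MRPS10, −0.30 for MRPS27, −0.10 for MRPS31, −0.05 for MRPS14, 0.02 for MRPS15, −0.07 for MRPL19, −0.07 for MRPL52 and 0.01 for MRPL47. For the genes themselves the brightest probe set had a name ending in _s_at for 44 members and _x_at for 3, endings that mark probes shared between transcripts or with other genes. Retrotransposed copies of several of these genes exist, so signal from near-identical sequence could not be told apart there.

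**Figure D4:**
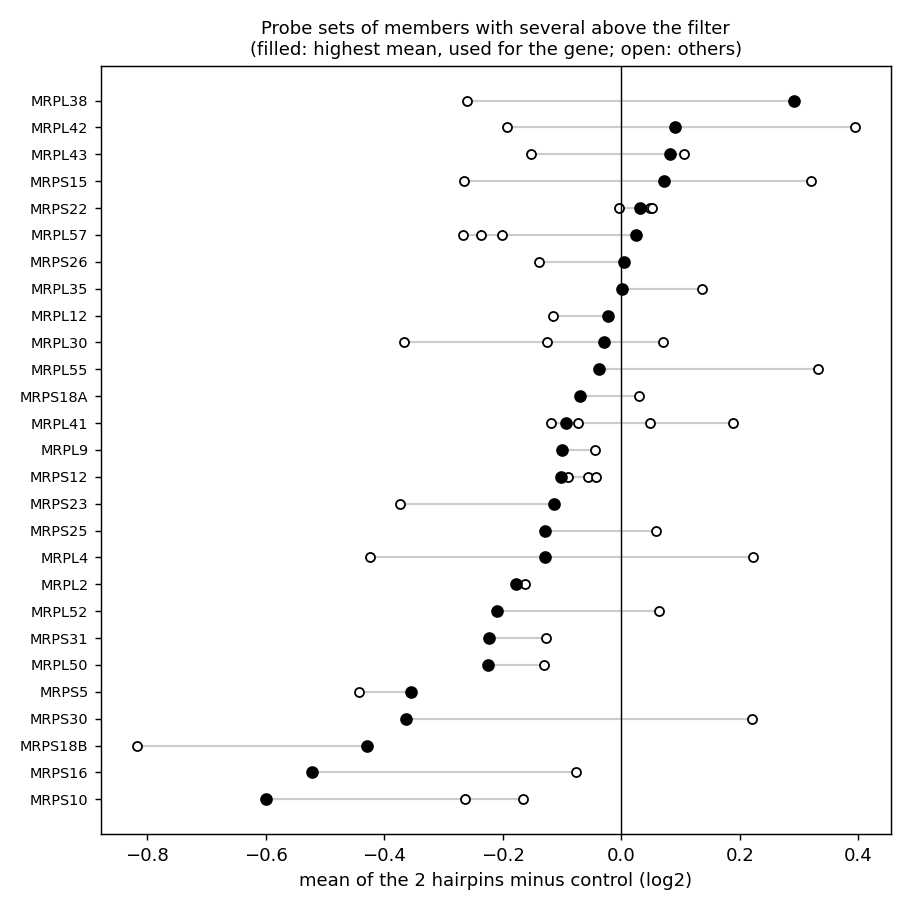
Mean of the 2 hairpins minus control (log2) for every probe set above the filter of the 27 members that had several; filled points are the probe set used for the gene, open points the others. MRPS18B, MRPS5, MRPS10 and MRPS16 lie below 0 throughout, while MRPS30 and MRPL38 have points on both sides of 0. The open points of MRPS30 and MRPL38 come from probe sets with low means over the arrays (3.94 and 3.29).

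The promoters of these genes were read from a RefSeq table of build GRCh38.p14, with windows of 250 bases before to 50 after each annotated start. It held 83 promoters for 67 members, and 8 members were not matched. Short motifs were searched on both strands, each as fixed letters. The YY1 motif AAGATGGCG was in 12 member promoters (14.5%), against 3.38% of the 13915 promoters of genes tested and 1.75% of all promoters in the table. The ETS motif CCGGAAGT, bound by GABP, was in 13 member promoters (15.7%), against 7.21% of tested genes and 4.14% of all. The NRF1 motif GCGCATGCG was in 3 (3.61%, against 3.14% and 1.92%), the E-box CACGTG in 9 (10.8%, against 9.43% and 7.26%) and CCAAT in 28 (33.7%, against 34.3% and 34.6%). Of 58 promoters of cytosolic ribosomal protein genes, 12 (20.7%) held the ETS motif and 4 (6.9%) the YY1 motif. Within the members the ETS share was 19.6% in the large and 9.38% in the small subunit. No matches of different motifs overlapped in a member promoter. The NRF1 letters overlap their own reverse complement, so 1 place can match on both strands. The median number of CG dinucleotides per window was 23 for members, 25 for tested genes and 14 for all.

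Stretches of 30 bases around the YY1 letters are shown. The reason was that 3 of the lowest MRPS genes, MRPS10, MRPS18B and MRPS30, carry these letters just after the start. MRPS16 and MRPS9, also among the lowest MRPS genes, had no YY1 letters in their windows. Of the lowest MRPL genes, MRPL46 had them, MRPL11, MRPL24 and MRPL19 did not, and MRPL15 was not matched to a promoter. The letters hold an ATG. They are read 5′ to 3′ on the strand of the gene, and capitals mark the motif or its reverse complement.
MRPS10 (chr6:42217833-42217862, minus strand): cgggaccggcAAGATGGCGgcgcggacagc
MRPS18B (chr6:30617853-30617882, plus strand): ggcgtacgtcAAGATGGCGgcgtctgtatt
MRPS30 (chr5:44808950-44808979, plus strand): atcgcgggcaAAGATGGCGgcggccaggtg
MRPS18A (chr6:43687763-43687792, minus strand): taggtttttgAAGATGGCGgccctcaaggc
MRPL46 (chr15:88467361-88467390, minus strand): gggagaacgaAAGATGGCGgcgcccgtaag
MRPL50 (chr9:101398576-101398605, minus strand): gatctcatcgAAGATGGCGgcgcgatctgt
MRPL38 (chr17:75904859-75904888, minus strand): ggccggagggAAGATGGCGgcgccctggtg
MRPL42 (chr12:93467512-93467541, plus strand): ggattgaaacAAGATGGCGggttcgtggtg
MRPL36 (chr5:1799854-1799883, minus strand): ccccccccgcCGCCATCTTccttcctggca

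In 9 of the 13 matches the motif began after the start site, between 7 and 36 bases in, and 11 of 13 were in the direction of the gene. The other genes with a match were MRPL22, MRPL32 and MRPL52. The 12 genes were not alike on the arrays: 6 were lower with both hairpins (MRPS10, MRPS18B, MRPS30, MRPL46, MRPL50 and MRPL52), 3 were higher with both (MRPL36, MRPL38 and MRPL42) and the other 3 were mixed. Of all members 44.0% were lower and 24.0% higher with both, and of all genes tested 32.3% and 29.0%. Their median difference was −0.14, against −0.04 for the 55 matched members without the letters. Such gaps were not particular to these letters. Medians with and without the E-box were 0.06 and −0.06, with and without CCAAT 0.03 and −0.06, and with and without the NRF1 letters 0.002 and −0.05. None of these gaps was tested. The YY1 gene read 9.39, 9.45 and 8.80 in the order control, hairpin 2 and hairpin 5, and averaged over its probe sets differed by 0.20 and 0.07. A match is a run of letters in a window and says nothing of binding.

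The ETS letters were in 11 genes, with 10 of the 13 promoters in the large subunit. They are shown for 3 of the 5 large subunit genes highest with both hairpins.
MRPL16 (chr11:59810767-59810796, minus strand): gagtgaacacaACTTCCGGccccactgagc
MRPL38 (chr17:75905075-75905104, minus strand): gtccaacgggcACTTCCGGagccgggcgtc
MRPL47 (chr3:179604659-179604688, minus strand): ggcttgagacgCCGGAAGTgacgctatcgt

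Of the 11 genes with these letters 4 were higher and 3 lower with both hairpins, beside the same shares, with a median of 0.03 against −0.07 for the 56 without. MRPL44 and MRPL14, the other genes at the high end, had neither the ETS nor the YY1 letters in their windows.

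Many members share a start region with a neighbour on the opposite strand. A divergent start within 1000 bases was found for 32 of 83 member promoters (38.6%), against 23.4% of the promoters of tested genes. For promoters of cytosolic ribosomal protein genes the share was 29.3%. MRPL46 and MRPS11, from the 2 subunits, start 320 bases apart on opposite strands; MRPL46 differed by −0.29 and −0.23 and MRPS11 by 0.07 and −0.08. MRPS27 starts 133 bases from PTCD2, a mitochondrial RNA-binding protein of the same repeat family. With hairpin 2, where MRPS27 was −1.09, PTCD2 differed by −0.36, and with hairpin 5, where MRPS27 was 0.09, by −0.50. Across MRPS18B and its neighbour PPP1R10, 597 bases away, the signs were opposite, with PPP1R10 at 0.69 and 0.34.

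Mitochondrial ribosomal proteins whose symbols fall outside the rule were read as a separate list, which also holds KGD4, once named MRPS36 and now placed in the oxoglutarate dehydrogenase complex. The 4 ribosomal proteins were lower with both hairpins (32.3% of all genes tested were), with medians of −0.04 and −0.31, and 0 passed limma. DAP3, the GTP-binding protein of the small subunit, read 9.10, 8.63 and 8.57, close to the size seen for MRPS16. PTCD3, at the mRNA entry, differed by −0.05 and −0.43, CHCHD1 by −0.02 and −0.19, and GADD45GIP1, of the large subunit, by −0.01 and −0.18. KGD4 differed by −0.25 and −0.31. Averaged over probe sets DAP3 stood at −0.18, PTCD3 at 0.06 and GADD45GIP1 at −0.06.

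The machinery that works with this ribosome held genes of both signs. Among all genes tested 32.3% were lower and 29.0% higher with both hairpins. Of 15 tested genes on the list of translation factors 4 were lower and 4 higher with both hairpins, with medians of 0.03 and −0.02 and 0 limma calls. The list is broad and holds genes, MIEF1 among them, that are not translation factors themselves. GFM1, the elongation factor that moves the ribosome along mRNA, was the furthest against the median (6.02, 5.63 and 4.96), and averaged over its probe sets its mean difference was −0.14 instead of −0.72. TUFM, which delivers aminoacyl-tRNA, differed by −0.10 and 0.24, and the initiation factor MTIF2 by −0.43 and −0.24, both named after their values were seen. MIEF1 (0.12 and 0.40), MTFMT, which formylates the initiator tRNA (0.05 and 0.31), TACO1 (0.10 and 0.07) and GUF1 (0.12 and 0.05) were on the higher side. Averaged over probe sets, MIEF1 stood at −0.14 and GUF1 at −0.06.

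Of 27 tested assembly factors 7 were lower and 9 higher with both hairpins, with medians of 0.07 and −0.03 and 0 limma calls. The shares among all genes tested were 32.3% lower and 29.0% higher. RCC1L, of the large subunit assembly pathway, read 4.87, 5.86 and 5.37, and ERAL1, the chaperone of the small subunit RNA, read 4.35, 5.01 and 4.75. MRM2, which methylates the large subunit RNA, was 0.26 and 0.29 higher, and the helicase DDX28 0.28 and 0.18 higher. METTL15, which methylates the small subunit RNA, was lower at 6.78, 5.86 and 6.43. The pseudouridine synthase family member RPUSD3, named after its values were seen, read 7.72, 6.45 and 7.59, low with hairpin 2 alone as MRPS27 was. Averaged over probe sets the mean differences were 0.31 for RCC1L, −0.10 for METTL15 and −0.08 for RPUSD3.

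**Figure D5:**
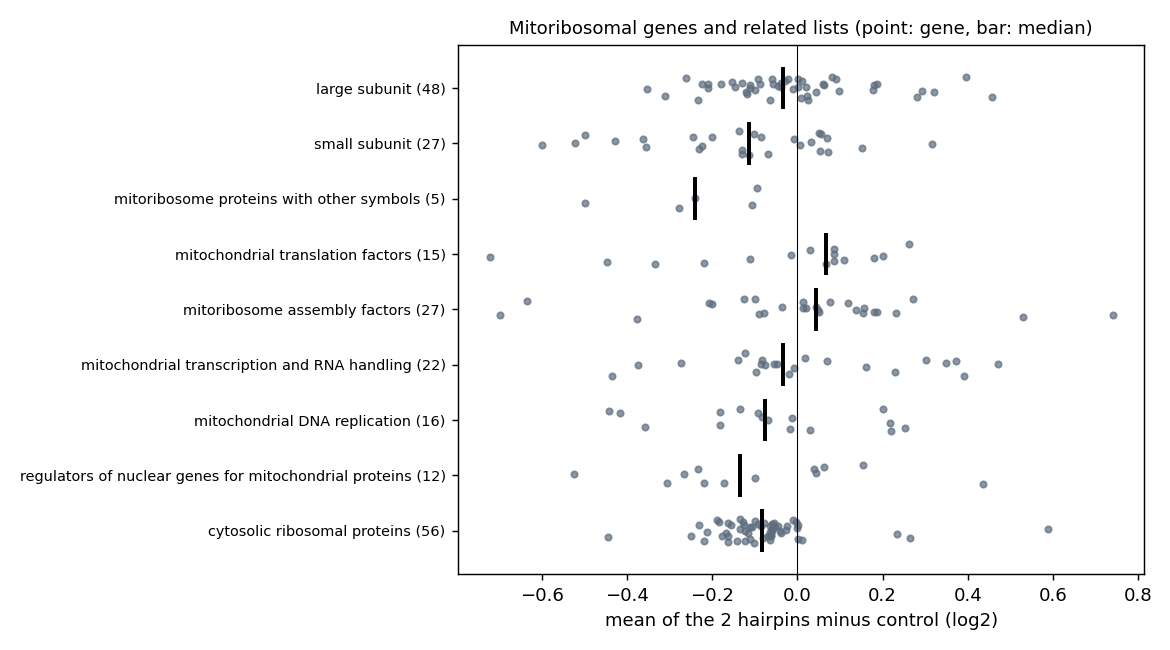
Mean of the 2 hairpins minus control (log2) for each gene of the large subunit, the small subunit and 7 related lists; points are genes (spread vertically at random) and bars are medians. Medians lie between −0.24 for the 5 genes under other symbols (KGD4 included) and 0.07 for the list of translation factors.

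Genes that act on mitochondrial RNA and DNA were centred near 0 as well. Of 22 tested genes of transcription and RNA handling 8 were lower and 5 higher with both hairpins, with medians of 0.03 and −0.07. Among all genes tested 32.3% were lower and 29.0% higher with both. PTCD2 read 4.61, 4.24 and 4.10, FASTKD3 differed by −0.10 and −0.64 and the RNA-stabilising LRPPRC by −0.17 and −0.11, while FASTKD5 was 0.66 and 0.28 higher. Averaged over its probe sets LRPPRC differed by −0.15 and 0.05. Of 16 genes of mitochondrial DNA replication and nucleotide supply 7 were lower and 5 higher, with medians of 0.04 and −0.14. SUCLG1 differed by −0.39 and −0.49 and the nuclease MGME1 by −0.08 and −0.75, and thymidine kinase TK2 was 0.26 and 0.18 higher. No gene of either list passed limma.

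Of 12 tested regulators of nuclear genes for mitochondrial proteins, 3 were lower and 3 higher with both hairpins, with medians of 0.04 and −0.19 and 0 limma calls. The shares among all genes tested were 32.3% lower and 29.0% higher. NRF1, a transcription factor for nuclear genes of mitochondrial proteins, read 5.03 on the control array and differed by −0.52 with hairpin 2 and −0.53 with hairpin 5. Averaged over its probe sets its mean difference was −0.20 instead of −0.53. GABPB2, a subunit of GABP, differed by −0.35 and −0.26, and MLX was 0.48 and 0.40 higher, or 0.10 as the average of its probe sets and hairpins.

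The cytosolic ribosome, which makes the mitochondrial ribosomal proteins themselves, was compared by counts. The list was taken by symbol and is partial. It also holds like-named genes such as RPL7L1 and RPL22L1, while RPL4 and RPL5, for example, are not in it. Of 56 tested genes on it 46 were lower and 4 higher with both hairpins, with medians of −0.09 and −0.10. These counts were not recomputed with median centring or cyclic loess. Among all genes tested 32.3% were lower and 29.0% higher with both. Averaged over probe sets some of the 46 changed sign, such as RPS29 with a mean difference of 0.24, while others such as RPL14 (−0.26) did not. The mitochondrial set had 33 of 75 lower and 18 higher, with medians of −0.02 and −0.08. The difference between the sets was not tested, and the cytosolic genes had a median of 13.08 on the control array. Far below that median on the same array were RPL27A (6.47) and RPLP2 (5.13), both among the 4 higher genes, and RPL10L (3.79), among the 46 lower.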

How the data were processed

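RNA of HCT116 cells was measured on 3 Affymetrix arrays, 1 per sample. The values are log2 as deposited; the submitters' processing notes name RMA and the Affymetrix Expression Console, so the normalization was the authors'. Versions, settings and centring are not given in the sources used here, and the log base was read from the range of the values (1.95 to 14.06 on the control array). RMA's normalization between arrays can hide a shift shared by most genes. There are no detection calls, and the number of arrays limits the precision. Of 54613 probe sets, 41091 had 1 gene in the platform annotation, 1801 had several and 11721 were unnamed here.

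The brightest probe set by mean stood for a gene, and genes at or above the 40th percentile were tested. Both UHRF1 hairpins, which share a source label, were set against the control in a two-sided limma test (lmFit, eBayes; limma 3.58.1 under R 4.3.3). P-values of all 11865 genes were adjusted together by Benjamini-Hochberg. The fit has 5.77 degrees of freedom after moderation and takes the control's spread to equal that of the hairpin arrays. A run on simulated data gave every gene the same spread, unlike these arrays, so it is no support for the fit here. An exact permutation over the 3 arrays cannot go below p = 0.333. P-values measure only the spread between these samples, which may be technical. Lists were described by counts and medians. Members, lists and rules were chosen with earlier results of these data known. Values on each array are given for the 5 highest and 5 lowest genes per subunit by the smaller hairpin difference. They are also given for the 3 furthest to either side for hairpin 2 minus hairpin 5, and the highest and lowest by level. List genes were chosen the same way. MRPL12 and the YY1 gene, among others, were given outside these rules, and some genes are named as chosen later. Promoters were searched with Python 3.11.15. Alternatives were the filter, the choice of probe set, median centring, cyclic loess, the variance prior, the thresholds and leaving out each hairpin.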

Additional observations from a re-analysis of the deposited data

How the results depend on the processing

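No member passed limma under any alternative run. Over all genes, limma called 35 with median centring and 1 with an intensity trend in the prior, against 0 in the main fit and in the other settings; the cause was not tested. The large subunit median, −0.03, was −0.11 without probe sets ending in _x_at or _s_at and −0.0033 with cyclic loess. The number of large subunit genes lower with both hairpins, 21, was 36 when each probe set counted on its own and 13 with median centring and 15 with cyclic loess. The number higher, 12, was 18 with cyclic loess and 3 without _x_at and _s_at probe sets, where fewer genes remain. In the small subunit, 12 lower became 7 without those probe sets and 21 with each probe set on its own, and 6 higher became 10 with the latter. Leaving out one hairpin gave medians between −0.05 and −0.01 for the large and between −0.133 and −0.047 for the small subunit. With 1 hairpin, 26 to 31 large and 16 to 17 small subunit genes were lower and 17 to 22 and 10 to 11 higher. At 1.2-fold in place of 1.5-fold, 3 members were lower and 3 higher with both hairpins. MRPS30 turned from −0.36 to 0.03 (0.0277) as the mean of its probe sets. Without 1 hairpin, 5 of the 30 members given on every array by the rule changed sign. These were MRPS27 (0.09), MRPL49 (−0.06), MRPL54 (−0.08), MRPS14 (0.06) and MRPS6 (0.03). The filters cannot move a gene's own difference. Of the 30, 3 moved by more than the spread between hairpins with cyclic loess and 2 with median centring. Counting MRPS30 and MRPS18A in the large subunit, chosen after seeing the data, gave medians of −0.04 and −0.11. No paired analysis was possible because the control has a single array. With 3 arrays, shifts of the size seen here cannot be separated from the spread between arrays.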
